A study of Mus musculus with 114 samples.

Results

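The 9 genes described here encode proteins that coat lipid droplets or help to assemble them: the perilipins Plin1, Plin2, Plin3, Plin4 and Plin5, the droplet fusion protein gene Cidec, and Bscl2, Fitm1 and Fitm2, which act at the endoplasmic reticulum (ER). They were taken by symbol from the 29132 genes measured by RNA-seq in adipocytes of perigonadal (epididymal) white adipose tissue. The animals were male C57BL/6J mice with no stated genetic change, on control chow (CD) or on a diet high in fat (HFD). The authors' methods name more than one control diet, and which mice were given which is not stated in the sources used here. Feeding began at an age of 6 weeks and went on for 8, 20 or 34 weeks, which made the mice 14, 26 or 40 weeks old at the end. Each group held 6 mice, except for 8 CD mice at 34 weeks, which gave 38 in all, and every mouse was fasted before collection. Adipocytes were the cells that floated after collagenase digestion of the fat pad, with no sorting step.

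A fat cell keeps its triglyceride in a droplet that is bounded by a single layer of phospholipid and a coat of proteins, and perilipins are the major family of that coat. PLIN1, the principal perilipin of fat cells, holds back lipolysis until it is phosphorylated, and PLIN4 is a perilipin of fat cells found on small new droplets. PLIN2 and PLIN3 are made by most cell types, including macrophages that have taken up lipid, whereas PLIN5 is known from tissues that burn fat, such as heart and brown fat. CIDEC gathers at droplet contacts and lets small droplets merge into the large droplet of a white fat cell. Seipin, the product of Bscl2, and the FITM proteins sit in the ER membrane, where droplets form, and loss of seipin causes congenital lipodystrophy.

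Plin4, Plin5 and Plin3 lie in this order on the minus strand of chromosome 17 (mm10, GENCODE vM21), at chr17:56100591-56109803, chr17:56111601-56117596 and chr17:56277476-56292873. Plin4 and Plin5 are 1797 bases apart, and Plin5 and Plin3 are 159879 bases apart. The other members are on separate chromosomes, with Plin1 at chr7:79720218-79732903, Plin2 at chr4:86648386-86670060, Cidec at chr6:113424634-113435760, Bscl2 at chr19:8837467-8848683, Fitm1 at chr14:55575617-55576954 and Fitm2 at chr2:163466379-163472629. Exons of Bscl2 share 398 bases (6.75% of its exon bases) with Gng3 on the opposite strand, those of Fitm2 share 227 bases (5.72%) with the antisense gene 2310001K24Rik, and those of Fitm1 share 109 bases (11.2%) with the antisense gene Gm15932. Since the strand setting of the authors' counting is not given in the sources used here, reads in those bases cannot be assigned to one of the genes. Bscl2 also shares 239 bases (4.05%) with AC129217.1, a protein-coding gene on the same strand, which a strand setting would not separate.

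The 4 members whose diet groups did not overlap at 20 weeks, Plin2 and Plin3 (higher in HFD) and Cidec and Bscl2 (lower in HFD), are shown by the 250 bases before their RefSeq start (GRCm38.p6), so that the 2 directions can be compared in sequence. At that time the diet groups of 37.2% of all genes tested did not overlap. The windows are chr4:86670060-86670309 on the minus strand for Plin2, chr17:56290512-56290761 on the minus strand for Plin3, chr6:113435761-113436010 on the minus strand for Cidec and chr19:8837217-8837466 on the plus strand for Bscl2, with the outermost start used for Cidec and Bscl2, which have more than one start in the table. Capitals mark matches on either strand to CCAAT, a box near many gene starts. They also mark matches to AGGTCA, the half-site of nuclear receptors such as the PPARs.
Plin2: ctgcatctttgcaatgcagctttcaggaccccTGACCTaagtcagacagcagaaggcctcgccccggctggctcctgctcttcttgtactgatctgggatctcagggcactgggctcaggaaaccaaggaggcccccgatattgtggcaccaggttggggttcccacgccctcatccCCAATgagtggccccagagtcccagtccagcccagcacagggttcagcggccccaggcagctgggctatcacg
Plin3: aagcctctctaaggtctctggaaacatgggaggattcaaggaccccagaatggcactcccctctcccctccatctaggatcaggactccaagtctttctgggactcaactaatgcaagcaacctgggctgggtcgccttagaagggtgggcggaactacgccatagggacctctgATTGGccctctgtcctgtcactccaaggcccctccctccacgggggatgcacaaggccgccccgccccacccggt
Cidec: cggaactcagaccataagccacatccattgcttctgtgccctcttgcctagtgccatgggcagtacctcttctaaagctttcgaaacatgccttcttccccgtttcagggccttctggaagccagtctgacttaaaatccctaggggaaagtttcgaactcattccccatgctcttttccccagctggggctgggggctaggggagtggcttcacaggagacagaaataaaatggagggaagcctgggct
Bscl2: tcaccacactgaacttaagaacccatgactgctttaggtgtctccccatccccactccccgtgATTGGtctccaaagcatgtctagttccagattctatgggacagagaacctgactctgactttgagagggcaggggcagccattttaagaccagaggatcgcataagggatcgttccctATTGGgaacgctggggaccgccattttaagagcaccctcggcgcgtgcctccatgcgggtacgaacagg
All 9 members matched the RefSeq table, with 13 starts. AGGTCA was in the window of Plin2, 218 bases before the start, of Plin5, 170 bases before its first start, and of the second start of Bscl2, 202 bases before it. Across 32851 promoters, 14.0% held that half-site on either strand. CCAAT, which 33.8% of promoters held, was in the windows of Plin2, Plin3 and Plin4. It came 2 times before the first start of Plin5 and 2 times before that of Bscl2. No window of a member held 2 copies of AGGNCA set 1 base apart, the paired site of the PPARs, which 0.338% of promoters held and which can overlap an AGGTCA match. The E-box CACGTG (6.02% of promoters) was in none of the windows. Nor was the box TATAAA (12.4%). The G and C content of the windows ran from 47.2% for the third start of Bscl2 to 70.0% for the second start of Plin5, against a median of 52.4% over all promoters. CCAAT thus stood before both members that were higher and members that were lower in HFD.

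Each library held 9275711 to 15480388 reads on genes, so that 1 read was worth 0.0646 to 0.1078 CPM, the reads of a gene in every 1000000 reads on genes. All 10 adipocyte markers listed for the check, among them Adipoq and Fabp4, had reads in every mouse, and their summed level was 20009 to 59745 CPM. Macrophage markers were present too. The summed CPM of 10 of them ran from 329 to 1589 in CD and 936 to 2769 in HFD mice at 8 weeks, from 915 to 2896 and 3722 to 7853 at 20 weeks, and from 895 to 9707 and 4201 to 12055 at 34 weeks, with none of the 10 at 0 in any mouse. CD mouse 5 and CD mouse 2 had the most of those markers in their group at 34 weeks. They had 9707 and 6483 CPM, against 895 to 4531 CPM in the other 6 mice. CD mouse 1 at 20 weeks stood apart from its group, with 2896 CPM against 915 to 1551 CPM in the other mice. Its 8 markers of lipid-associated macrophages, among them Trem2 and Gpnmb, summed to 2239 CPM, against 156 to 448 CPM in those mice. Summed markers of T cells (0.0815 to 3.23 CPM), B cells (0.0736 to 5.82) and epididymis (0 to 10.6) were low, as were those of mesothelium (3.09 to 52.8) and brown adipocytes (2.54 to 83.7). Skeletal muscle markers summed to 2.48 to 190 CPM, mostly from Acta1, while Myh4 and Myh1 were at 0 in 27 and 31 of the 38 mice. In RNA from a whole fraction, fewer cells of a type and less RNA in each cell cannot be told apart.

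Per kilobase of exon, Cidec had the highest level of the 9 members in every group. In CD mice at 8 weeks it was at 3495 ± 396 CPM per kb (SD, n = 6), above Plin4 at 1043 ± 116, Plin1 at 420 ± 38.7 and Plin2 at 162 ± 23.5. Fitm2 (90.0 ± 9.50 CPM per kb) and Bscl2 (60.1 ± 3.76) followed, and Plin3 (11.8 ± 1.02) and Plin5 (7.33 ± 2.22) were far below the other perilipins. Fitm1 was at 0.0288 ± 0.0446 CPM per kb, with 2 reads over the 6 libraries. The place of Plin2 differed between groups. It ranked below Plin1 in CD mice at 8 and 20 weeks and in HFD mice at 8 weeks, close to it in CD mice at 34 weeks (332 ± 123 against 326 ± 83.5, n = 8), above it in HFD mice at 20 weeks (372 ± 44.6 against 236 ± 39.0, n = 6), and above both Plin1 and Plin4 in HFD mice at 34 weeks (506 ± 147, 213 ± 59.2 and 408 ± 118, n = 6), where the ranges of Plin2 (366 to 735) and Plin4 (239 to 553) overlapped.

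**Figure D1:**
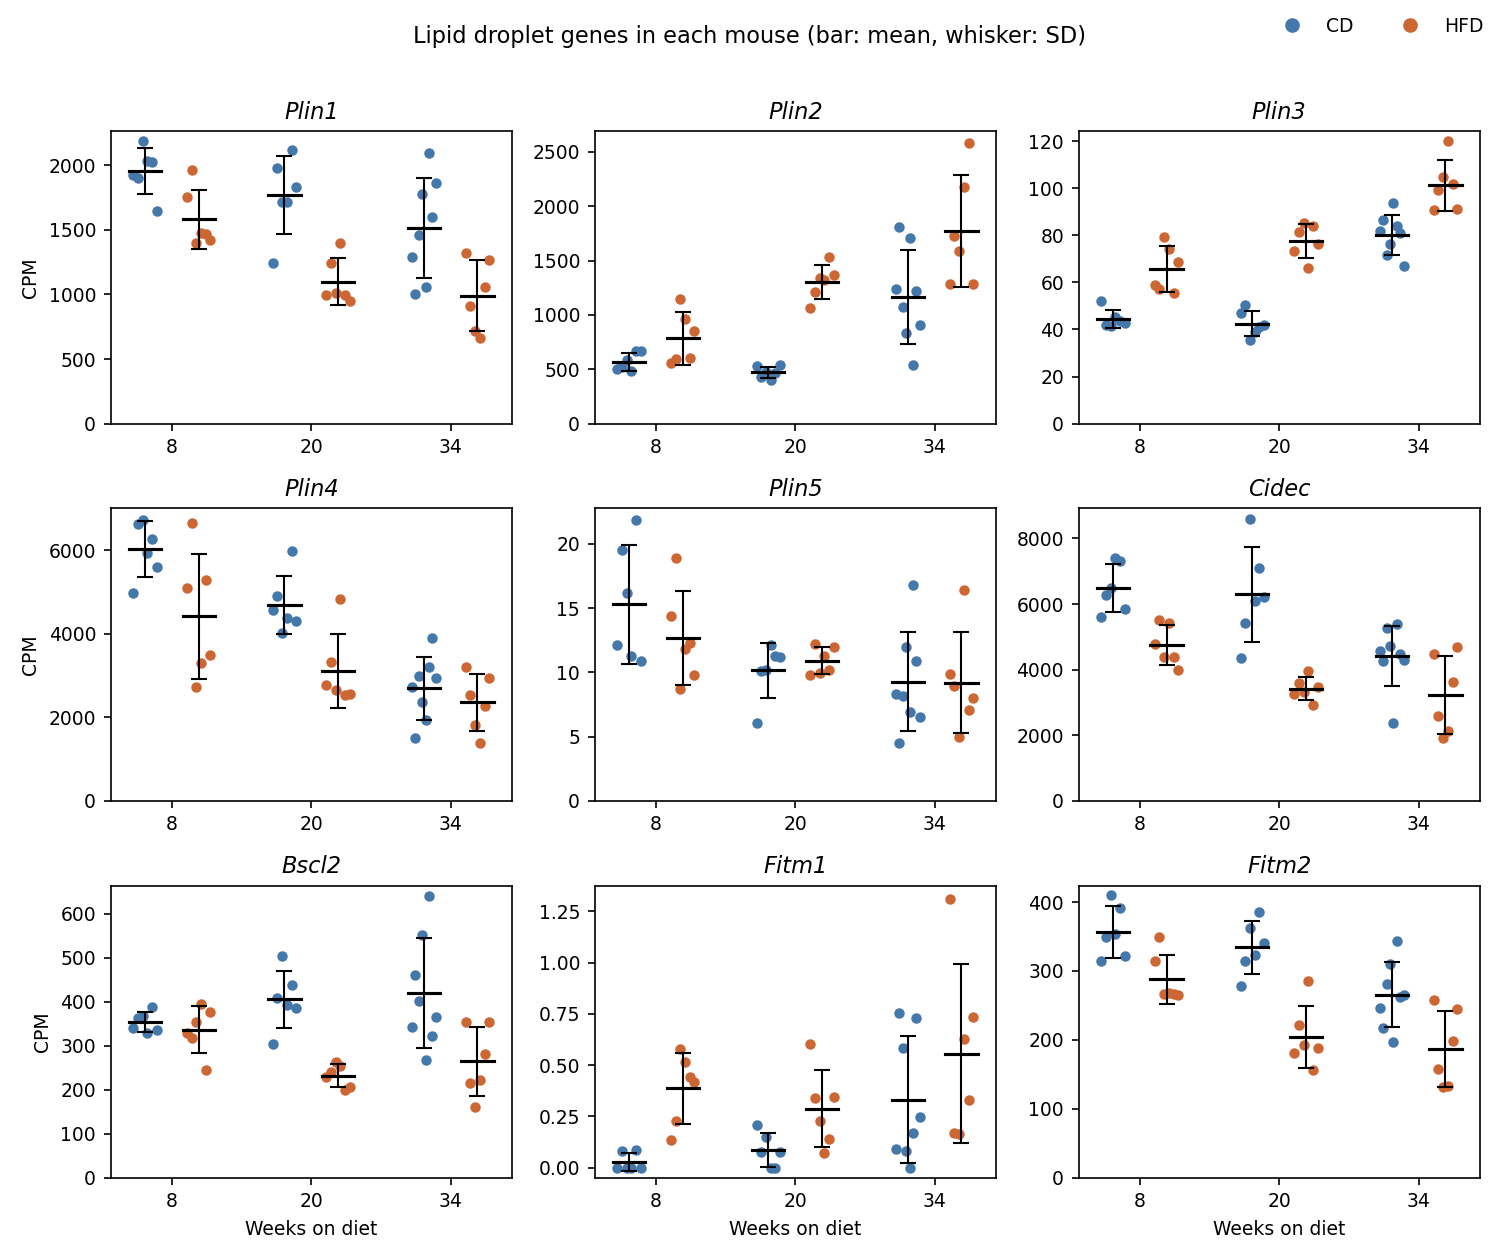
Level in CPM (vertical axes, linear) of the 9 genes against weeks on diet, with 1 point per mouse, blue for CD and orange for HFD, the mean as a bar and the SD as a whisker. At 20 weeks the HFD points of Plin2 (1064 to 1531 CPM) and Plin3 (66.2 to 85.3) lie above all CD points, and those of Cidec (2934 to 3946) and Bscl2 (199 to 263) lie below all CD points.

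The first comparison asked whether the genes of the droplet coat differed between HFD and CD mice after the same time on diet. In limma's test over 10343 genes with Benjamini-Hochberg adjustment, 1 of the 8 members tested was called at 8 weeks, 7 at 20 weeks and 6 at 34 weeks. Plin2 and Plin3 were the members that were higher in HFD, and Plin1, Plin4, Cidec, Bscl2 and Fitm2 those that were lower, at 20 weeks or at 34 weeks or at both. Fitm1 had too few reads for this test.

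These counts stand against a background in which much of the transcriptome was called. At 8 weeks, 29.8% of genes were called higher and 15.1% lower, against 1 and 0 of 8 members. At an unadjusted p under 0.05 limma gave 3 members lower (Cidec, Fitm2 and Plin4), and edgeR and DESeq2 on the recovered reads called 4 members in all. The shares of genes called by these 2 tools are not given here. At 20 weeks, 38.3% were called higher and 18.7% lower, against 2 and 5 of 8 members, and at 34 weeks 27.5% and 15.7%, against 2 and 4 of 8. The groups of the 2 diets did not overlap for 2, 4 and 0 of the 8 members at the 3 times, where 22.8%, 37.2% and 2.46% of genes did not overlap. The median log2 difference of the members was -0.28, -0.65 and -0.35, and that of all genes tested 0.11, 0.14 and 0.07. Scaled by edgeR's TMM factors, which move the median of all genes to 0.006, -0.071 and -0.012, the genes called were 22.6% higher and 21.4% lower at 8 weeks, 26.3% and 32.4% at 20 weeks, and 22.4% and 20.8% at 34 weeks. The members called were then 1 higher and 3 lower at 8 weeks, with 2 and 5 at 20 weeks and 2 and 4 at 34 weeks as before.

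**Figure D2:**
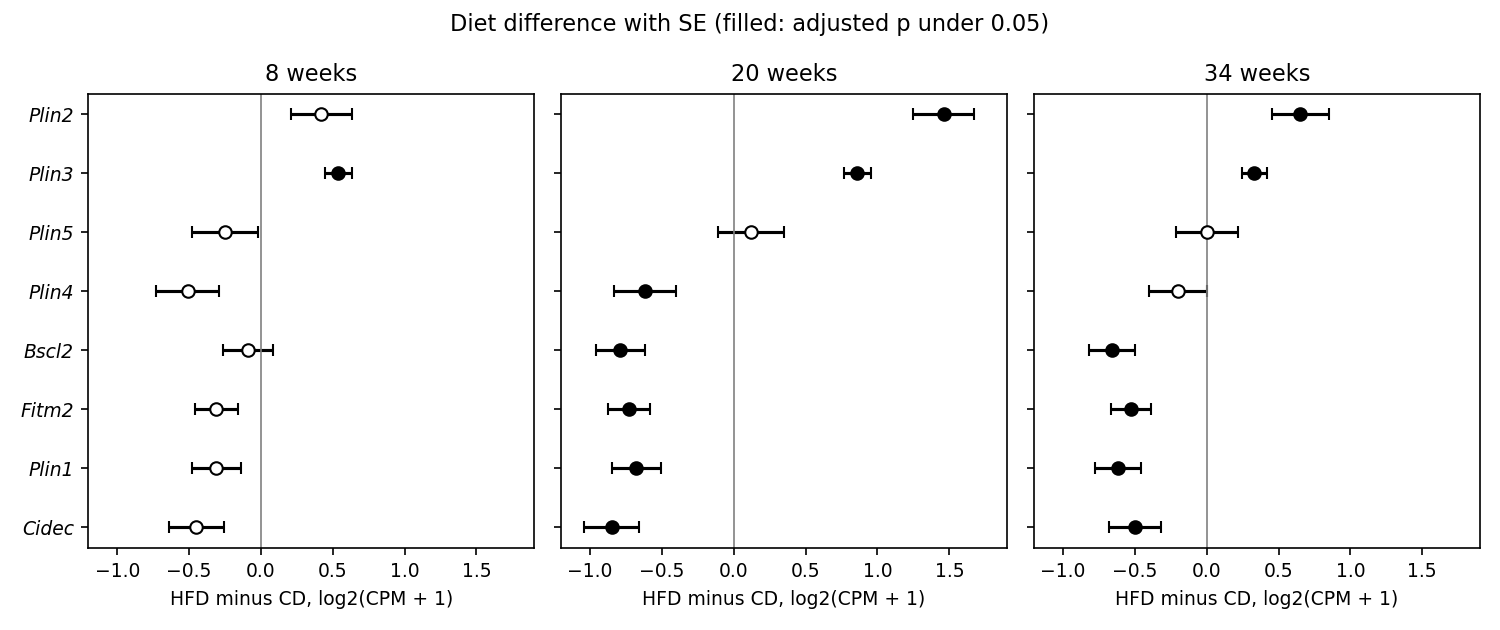
Difference between HFD and CD in log2(CPM + 1) (horizontal axes) for the 8 genes tested, with the SE of limma's fit over 38 mice, at 8, 20 and 34 weeks; filled points have an adjusted p under 0.05. Plin2 and Plin3 lie to the right of 0 at each time, and Cidec, Plin1, Plin4, Fitm2 and Bscl2 to the left. Plin5 (-0.25, 0.12 and -0.00) is filled at no time. Bscl2 at 8 weeks (-0.09) and Plin4 at 34 weeks (-0.20) lie nearer to 0 than Plin5 at 8 weeks.

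Plin1, which guards the droplet against lipases, had a median of 1978 CPM in CD mice at 8 weeks (range 1650 to 2188) and of 1471 CPM in HFD mice (1401 to 1968). After 20 weeks the medians were 1775 CPM in CD (1246 to 2119) and 1003 CPM in HFD (948 to 1401), and 5 of the 6 HFD mice lay below every CD mouse. At 34 weeks they were 1528 CPM (1007 to 2095) and 986 CPM (666 to 1324), and 3 of the 6 HFD mice lay below every CD mouse. The log2 difference was -0.31 (SE 0.17, adjusted p = 0.132) at 8 weeks, which did not pass the test. It was -0.68 (SE 0.17, adjusted p = 0.000962) at 20 weeks, a 1.60-fold fall, and -0.62 (SE 0.159, adjusted p = 0.00242) at 34 weeks.

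Plin4, the perilipin gene with the highest level per kilobase in CD mice, had wider ranges in HFD than in CD mice at 8 and 20 weeks. Its median was 6105 CPM in CD (4967 to 6738) and 4289 CPM in HFD mice (2724 to 6656) at 8 weeks, and 4483 CPM (4029 to 5988) and 2713 CPM (2525 to 4833) at 20 weeks. In HFD mice at 20 weeks, 5 of 6 lay below every CD mouse, with mouse 4 at 4833 CPM. At 34 weeks the ranges largely coincided, at 1504 to 3904 CPM in CD and 1380 to 3194 CPM in HFD. Plin4 passed the test at 20 weeks (log2 difference -0.62, SE 0.217, adjusted p = 0.0146), but not at 8 weeks (-0.51, SE 0.217, adjusted p = 0.055, and 0.0277 with TMM factors) or 34 weeks (-0.20, SE 0.203, adjusted p = 0.445).

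Plin2, the coat protein that cells make as they take up lipid, had the largest log2 difference between the diets at 20 weeks of the 8 members tested, but not at 8 or 34 weeks. At 8 weeks the HFD mice ran from 553 to 1146 CPM (median 725) and the CD mice from 482 to 667 CPM (median 555), with 3 of 6 HFD mice above every CD mouse, and the difference did not pass the test (0.42, SE 0.213, adjusted p = 0.109). The HFD mice of 20 weeks ran from 1064 to 1531 CPM (median 1331) and the CD mice from 405 to 535 CPM (median 470), with no overlap. This was a rise of 1.46 in log2 (SE 0.213, adjusted p = 1.05e-06), or 2.75-fold. At 34 weeks the CD mice had spread out, from 535 to 1813 CPM (median 1145), and overlapped the HFD mice, which ran from 1287 to 2581 CPM (median 1657). The difference was 0.65 (SE 0.199, adjusted p = 0.0089), and 0.65 with an adjusted p of 0.0807 when the spread was taken from the 34 week groups alone. Without CD mice 2 and 5 of that time, which had the highest Plin2 values of their group, it was 0.88 (adjusted p = 0.000275), and 6 members were called at 34 weeks as before. These mice were chosen after the data were seen, and leaving out the highest CD values must widen the difference. The HFD mice of that time, with 4201 to 12055 CPM of macrophage markers, were all kept. This fit is therefore no separate support for the call.

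Plin3, which is held in the cytosol and moves to young droplets, was the member called at all 3 times. HFD mice had 55.7 to 79.1 CPM (median 63.8) at 8 weeks and CD mice 41.6 to 51.9 CPM (median 43.2), with no overlap. In the 20 week groups the values were 66.2 to 85.3 CPM (median 78.9) and 35.5 to 50.2 CPM (median 41.4), again with no overlap. At 34 weeks HFD mice had 90.8 to 120 CPM (median 101) and CD mice 66.8 to 93.7 CPM (median 81.5), and 4 of 6 HFD mice lay above every CD mouse. The rise was 1.46-fold at 8 weeks (adjusted p = 4.33e-05), 1.82-fold at 20 weeks (adjusted p = 2.26e-08) and 1.26-fold at 34 weeks (adjusted p = 0.00312), on log2 differences of 0.54, 0.86 and 0.33.

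Plin5, the perilipin of fat-burning tissues, was low in all groups and passed the test at no time on diet. The CD medians were 14.1, 10.7 and 8.22 CPM at 8, 20 and 34 weeks, and the HFD medians 12.0, 10.7 and 8.45 CPM. The ranges overlapped at each time, the widest being 4.53 to 16.8 CPM in CD mice at 34 weeks. By limma the log2 differences were -0.25 (SE 0.229, adjusted p = 0.386), 0.12 (SE 0.229, adjusted p = 0.677) and -0.00 (SE 0.215, adjusted p = 0.995). Unadjusted, none of these was under 0.05 in limma, edgeR or DESeq2. The value at 20 weeks turns to -0.08 with TMM factors.

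Cidec, whose product makes droplets merge, had 5603 to 7397 CPM (median 6378) in CD and 3989 to 5498 CPM (median 4578) in HFD mice at 8 weeks, where the groups did not overlap but the adjusted p was 0.0516 (log2 difference -0.45, SE 0.191). With TMM factors the same comparison gave -0.56 and an adjusted p of 0.0328. The ranges of 20 weeks were 4343 to 8583 CPM (median 6157) and 2934 to 3946 CPM (median 3395), a 1.81-fold fall (log2 difference -0.85, SE 0.191, adjusted p = 0.000319). At 34 weeks they were 2378 to 5376 CPM (median 4524) and 1928 to 4680 CPM (median 3089), with 2 of 6 HFD mice below every CD mouse, and the fall was 1.41-fold (log2 difference -0.50, SE 0.179, adjusted p = 0.0234). That call is lost without HFD mouse 2, 3 or 4 (adjusted p = 0.0619, 0.107 and 0.0811), when only the groups of that time are fitted (adjusted p = 0.143), without the filter on low values (adjusted p = 0.109) and with the replicate block (adjusted p = 0.059).

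Bscl2, the seipin gene, was the assembly gene whose diet groups did not overlap at 20 weeks. At 8 weeks the CD mice lay at 330 to 387 CPM (median 352), inside the HFD range of 246 to 395 CPM (median 342), with a log2 difference of -0.09 (SE 0.172, adjusted p = 0.696). By 20 weeks the CD mice had 303 to 503 CPM (median 401) and the HFD mice 199 to 263 CPM (median 235), a 1.73-fold fall with no overlap (log2 difference -0.79, SE 0.172, adjusted p = 0.000214). At 34 weeks the CD mice had 267 to 640 CPM (median 384) and the HFD mice 160 to 353 CPM (median 252), a 1.58-fold fall (-0.66, SE 0.161, adjusted p = 0.00156) with 3 of 6 HFD mice below every CD mouse.

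Fitm2, an ER protein that helps droplets to bud, had medians of 351 CPM in CD (315 to 410) and 268 CPM in HFD mice (265 to 349) at 8 weeks, where the log2 difference of -0.31 (SE 0.149, adjusted p = 0.0893) did not pass the test (adjusted p = 0.0455 with TMM factors). The medians of 20 weeks were 332 CPM (278 to 386) and 190 CPM (157 to 285), with 5 of 6 HFD mice below every CD mouse, and at 34 weeks 264 CPM (197 to 343) and 178 CPM (132 to 258). The falls were 1.66-fold at 20 weeks (log2 difference -0.73, SE 0.149, adjusted p = 0.000106) and 1.45-fold at 34 weeks (-0.53, SE 0.139, adjusted p = 0.00282).

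Fitm1, the relative of Fitm2 known from skeletal muscle, was at the edge of detection, with 0 to 1.31 CPM in a library. The 6 CD mice at 8 weeks held 2 reads in all, with 4 mice at 0, and the 6 HFD mice held 34 reads, at 0.134 to 0.581 CPM in each. Those HFD libraries were deeper, at 13201234 to 15480388 reads on genes against 10562845 to 12611013 in CD. The groups of 20 weeks held 7 and 25 reads, and at 34 weeks 30 and 38. An exact permutation test over mice (two-sided, log2(CPM + 1), unadjusted) gave p = 0.00216 at 8 weeks, which is the smallest such p for 6 against 6 mice, p = 0.0281 at 20 weeks and p = 0.275 at 34 weeks. In limma without the filter on low values, the adjusted p was 0.022, 0.195 and 0.246. The mean was 0.0279 CPM in CD and 0.387 CPM in HFD mice at 8 weeks, so each value rests on a few reads in a library, some of which may lie in the bases shared with Gm15932.

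As a share of the perilipin mRNA, counted per kilobase of exon, Plin4 gave most in every group but HFD mice at 34 weeks. In CD mice at 8 weeks Plin4 made up 63.3% ± 2.14 (SD, n = 6), Plin1 25.6% ± 2.11 and Plin2 9.92% ± 1.52, and the shares in CD mice at 20 weeks were near these (60.4% ± 3.06, 28.3% ± 3.27 and 10.1% ± 1.73, n = 6). In HFD mice at 20 weeks Plin4 made up 45.4% ± 5.45, Plin1 20.2% ± 1.11 and Plin2 32.2% ± 5.59 (n = 6). By 34 weeks Plin2 reached 43.9% ± 11.9 in HFD (n = 6) and 29.4% ± 12.6 in CD mice (n = 8), whereas Plin3 stayed at or under 2.36% ± 0.493 and Plin5 at or under 0.451% ± 0.0608 in the mean of any group. In single mice the ratio of Plin2 to Plin1, per kilobase, was 0.288 to 0.559 in CD mice at 20 weeks and 1.25 to 2.03 in HFD mice of that time, and 0.338 to 2.38 and 1.29 to 4.33 at 34 weeks. The highest CD ratios at 34 weeks, 2.38 and 2.14, were those of mice 2 and 5, the mice with the most macrophage marker reads in their group. The group medians of Cidec to Plin1 ran from 6.85 to 8.61, and those of Bscl2 to Fitm2 from 0.682 to 0.948. Shares and ratios carry no test.

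**Figure D3:**
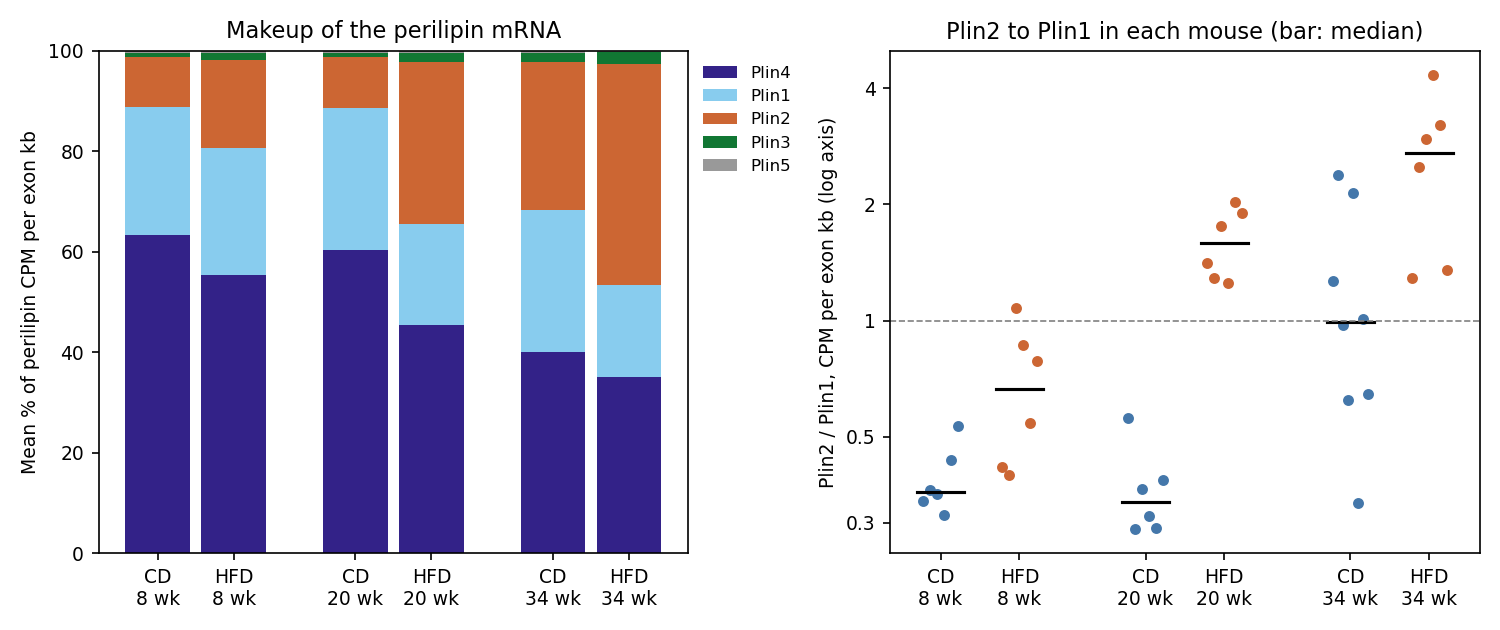
Left, mean percent of the perilipin level (CPM per kilobase of exon) from each perilipin gene in the 6 groups; right, the ratio of Plin2 to Plin1 in each mouse on a log axis, blue for CD and orange for HFD, with the group median as a bar and a dashed line at a ratio of 1. The Plin2 band grows from 10.1% to 32.2% between CD and HFD at 20 weeks, where all HFD ratios (1.25 to 2.03) lie above all CD ratios (0.288 to 0.559).

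The marker genes moved with the same contrasts. Of 10 macrophage markers, 6, 7 and 9 were called higher in HFD at 8, 20 and 34 weeks and 0, 1 and 0 lower, and of 8 markers of lipid-associated macrophages, among them Trem2 and Gpnmb, 8, 8 and 7 were called higher and none lower at any of these times. Of 10 adipocyte markers, 1, 6 and 8 were called lower and 2, 2 and 1 higher, with median log2 differences of -0.13, -0.58 and -0.68. Endothelial markers (5 of 5 at each time) and progenitor and fibroblast markers (3, 5 and 2 of 5) were called higher as well. The differences of the 5 members that fell at 20 weeks lay between -0.62 and -0.85, beside an adipocyte marker median of -0.58. With the mean of the macrophage markers as a covariate, which also takes out any diet difference that moves with the markers, Plin2 and Plin3 kept their calls at 20 weeks (0.81, SE 0.195, adjusted p = 0.00218 and 0.67, SE 0.106, adjusted p = 3.32e-05). Plin3 kept its call at 8 weeks too (0.41, adjusted p = 0.00101). The other 5 differences called at 20 weeks lay between -0.16 and -0.36 and did not pass, with adjusted p from 0.113 for Fitm2 to 0.653 for Plin4, and no member passed at 34 weeks, where Plin1 had the difference -0.25 (adjusted p = 0.252) and Plin2 0.18 (adjusted p = 0.546). Under the covariate, 36.8%, 29.5% and 9.41% of all genes were called at 8, 20 and 34 weeks, against 1, 2 and 0 of the 8 members. The part of macrophages in these differences was not tested, and their amount and the diet cannot be told apart in these libraries.

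**Figure D4:**
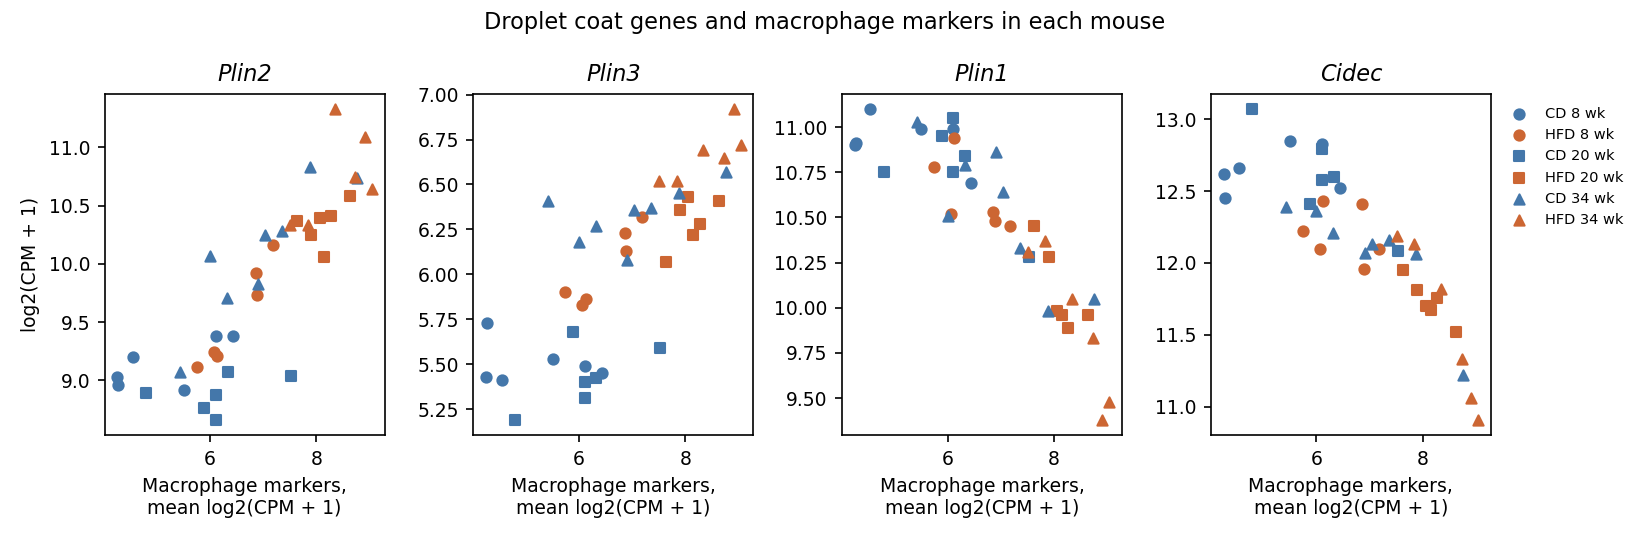
Level of 4 genes in log2(CPM + 1) (vertical axes) against the mean log2(CPM + 1) of 10 macrophage markers (horizontal axes) in each of 38 mice, blue for CD and orange for HFD, with circles for 8, squares for 20 and triangles for 34 weeks. Plin2 and Plin3 are higher and Plin1 and Cidec lower in mice with more marker reads, and the Plin3 points of HFD at 8 weeks (55.7 to 79.1 CPM) lie above those of CD at 20 weeks (35.5 to 50.2 CPM).

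The next comparisons followed each diet over time, and share their groups with each other and with the diet comparisons. Each time was a separate set of mice, in which weeks on diet and age rose together and cannot be told apart. In CD mice the calls came after 20 weeks. Limma called 0 of the 8 members between 8 and 20 weeks, against 3.58% of genes, with Plin5 alone at an unadjusted p under 0.05 in limma, edgeR and DESeq2, both of which also called 0. From 20 to 34 weeks 2 members rose and 3 fell, against 41.1% of genes called higher and 21.4% lower, and from 8 to 34 weeks 2 rose and 5 fell, against 40.1% and 24.6%. With TMM factors the shares of genes were 29.4% and 29.4% in the first and 31.6% and 31.8% in the second, and the members were again 2 and 3, and 2 and 5. Without CD mice 2 and 5 of 34 weeks, 3 members were called from 20 to 34 weeks, where Cidec (-0.37, adjusted p = 0.0663) and Fitm2 (-0.23, adjusted p = 0.16) no longer passed. These mice, chosen after the data were seen, had the lowest Cidec and Fitm2 values of their group. Leaving them out must shrink both falls, so the lost calls are no separate evidence. Between 20 and 34 weeks 8 of 8 lipid-associated macrophage markers were called higher (median log2 difference 2.09), and of the 10 macrophage markers 4 were higher and 2 lower. With the macrophage marker mean as a covariate, 3 members were called, against 63.1% of genes, and the part of these cells in the differences was not tested.

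Plin4 had the largest fall with time on chow, from a mean of 6024 ± 671 CPM (SD, n = 6) at 8 weeks to 2696 ± 753 CPM (n = 8) at 34 weeks, 2.31-fold, with no overlap. By limma the log2 difference was -1.21 (SE 0.203, adjusted p = 6.64e-06). Plin3 rose from 44.5 ± 3.85 CPM to 80.2 ± 8.49 CPM, also with no overlap (0.83, SE 0.088, adjusted p = 4.84e-09), and Plin2 from 571 ± 82.5 CPM to 1166 ± 431 CPM (0.95, SE 0.199, adjusted p = 0.000117), where 7 of 8 mice lay above every mouse of 8 weeks. All 8 mice of 34 weeks had less Cidec than any mouse of 8 weeks (-0.58, SE 0.179, adjusted p = 0.00527). Fitm2 (-0.44, adjusted p = 0.00645), Plin5 (-0.71, adjusted p = 0.00481) and Plin1 (-0.40, adjusted p = 0.0261) fell as well. The Plin1 call is lost without CD mouse 3 of 8 weeks or without CD mouse 2 or 5 of 34 weeks (adjusted p = 0.0568, 0.0694 and 0.0626), and lies at 0.186 without both of the latter. Mice 2 and 5 had the lowest Plin1 values of their group, so leaving them out must shrink the fall. The Plin1 call is also lost without the filter on low values (adjusted p = 0.0541). Bscl2 was at 354 ± 22.2 CPM at 8 weeks and 419 ± 125 CPM at 34 weeks and was not called. Of the 10 macrophage markers 8 were called higher and 0 lower in the same comparison, as were 8 of the 8 lipid-associated ones. With the macrophage marker mean as a covariate 3 members were called, against 55.4% of genes, while the Plin1 difference turned to 0.05 (adjusted p = 0.778).

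In HFD mice, calls were made already between 8 and 20 weeks. From 8 to 20 weeks Plin2 rose by 0.78 (SE 0.213, adjusted p = 0.00507) and Plin3 by 0.25 (SE 0.094, adjusted p = 0.0367), and Plin1 (-0.53, adjusted p = 0.0154), Bscl2 (-0.53, adjusted p = 0.0171) and Fitm2 (-0.52, adjusted p = 0.00767) fell, which made 2 and 3 of 8 members against 21.2% of genes called higher and 15.3% lower. The Plin3 rise did not pass with TMM factors (0.17, adjusted p = 0.127), which also moved the shares of genes to 18.1% and 21.8% and the members to 1 and 5. Nor did it pass with median-of-ratios factors (adjusted p = 0.0548), without the filter (0.0518), in edgeR (0.0798), with only the groups compared (0.0511) or with the replicate block (0.0523). It was also lost without HFD mouse 1, 2 or 5 of 8 weeks or 2, 3, 5 or 6 of 20 weeks (adjusted p = 0.0507 to 0.095). Of the macrophage markers 8 of 10, and of the lipid-associated ones 8 of 8, were called higher in this comparison. With the macrophage markers as a covariate, 0 of the 8 members passed in limma, where 6.02% of genes did. From 20 to 34 weeks, where 30.2% of genes were called, Plin3 alone was called of the 8 members, with a further rise of 0.38 (SE 0.094, adjusted p = 0.00359) and no overlap of the groups. The genes called were 17.8% higher and 12.5% lower, or 11.3% and 15.4% with median-of-ratios factors, where 1 member rose as well. From 8 to 34 weeks 2 members rose and 4 fell, against 31.7% and 20.8% of genes, or 24.8% and 27.7% with TMM factors, where 5 members fell. Plin2 rose from 784 ± 241 to 1775 ± 515 CPM (SD, n = 6 each) with no overlap, which was 2.27-fold in limma (adjusted p = 3.46e-05). Plin4 fell from 4423 ± 1498 to 2357 ± 680 CPM, 1.86-fold (adjusted p = 0.000892). Plin3 rose by 0.63 (adjusted p = 4.55e-06), and Plin1 (-0.71, adjusted p = 0.000755), Fitm2 (-0.67, adjusted p = 0.000392) and Cidec (-0.63, adjusted p = 0.00646) fell. Of the 10 macrophage markers 9 were called higher and 1 lower over this time, and 8 of the 8 lipid-associated ones higher. With the covariate 2 members were called, against 25.3% of genes.

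Whether the diet difference itself changed with time was tested as an interaction in the same fit. Between 8 and 20 weeks 1 member was called, against 4.49% of genes: the diet difference of Plin2 grew by 1.05 (SE 0.301, adjusted p = 0.041). That call is lost without the filter on low values (adjusted p = 0.0626), in edgeR on the recovered reads (adjusted p = 0.0509) and when any of 17 single mice is left out (adjusted p = 0.0503 to 0.0775). These are CD mice 1, 3, 5 and 6 and HFD mice 1, 2, 5 and 6 of 8 weeks, and CD mice 2 to 6 and HFD mice 2, 3, 5 and 6 of 20 weeks. Between 20 and 34 weeks 1 member was called, against 10.5% of genes: the diet difference of Plin3 shrank by 0.53 (log2 difference -0.53, SE 0.129, adjusted p = 0.00835), as the CD mice rose from 42.4 ± 5.39 to 80.2 ± 8.49 CPM and the HFD mice from 77.8 ± 7.23 to 101 ± 10.8 CPM. Between 8 and 34 weeks limma called 0 of the 8 members, against 28.8% of genes, with Bscl2 alone at an unadjusted p under 0.05 in limma, edgeR and DESeq2, and the latter tools called 0 too. With TMM factors the genes called in the first of these comparisons were 2.41% higher and 2.72% lower instead of 2.81% and 1.67%, and in the second 8.11% and 3.99% instead of 4.22% and 6.31%, with the same count of members.

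Put in order of their means, most groups overlapped with their neighbours. Of the 45 neighbouring pairs of groups over the 9 genes, 1 pair had ranges that did not overlap, which was Plin3 between CD and HFD mice of 8 weeks. The share of such neighbouring pairs over all genes is not given here. Between the diets at 8 weeks, 22.8% of all genes tested did not overlap, so this is no trait particular to Plin3. For Plin1, Cidec and Fitm2 the order was the same, from HFD at 34 weeks, the lowest, through HFD at 20 weeks, CD at 34 weeks, HFD at 8 weeks and CD at 20 weeks to CD at 8 weeks. Plin2 and Plin3 had CD at 20 weeks as the lowest and HFD at 34 weeks as the highest group. Bscl2 did not follow either order, since its highest mean was that of CD mice at 34 weeks (419 ± 125 CPM, n = 8) and its lowest that of HFD mice at 20 weeks (232 ± 25.9 CPM, n = 6).

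Within groups Plin1, Plin4, Plin5, Cidec, Bscl2 and Fitm2 varied in the same direction, and Plin2 and Plin3 against them. Over the 38 mice, after each value was set against its group mean in log2(CPM + 1), Pearson's r was 0.89 between Plin1 and Fitm2, 0.85 between Cidec and Fitm2, 0.76 between Plin1 and Plin4 and 0.76 between Cidec and Bscl2. Plin2 and Plin3 had r = 0.48 with each other and negative r with each of the other 6 genes, the lowest being -0.65 between Plin1 and Plin2 and between Plin3 and Plin4. Bscl2 and Plin4, at r = 0.15, were the falling pair least alike. These points share the sum to which each library is scaled and its makeup of cells. With the mean of the macrophage markers, r was 0.70 for Plin2 and 0.49 for Plin3 and between -0.47 and -0.70 for the others, and with the mean of the adipocyte markers it was 0.80 for Plin1 and -0.69 for Plin2.

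**Figure D5:**
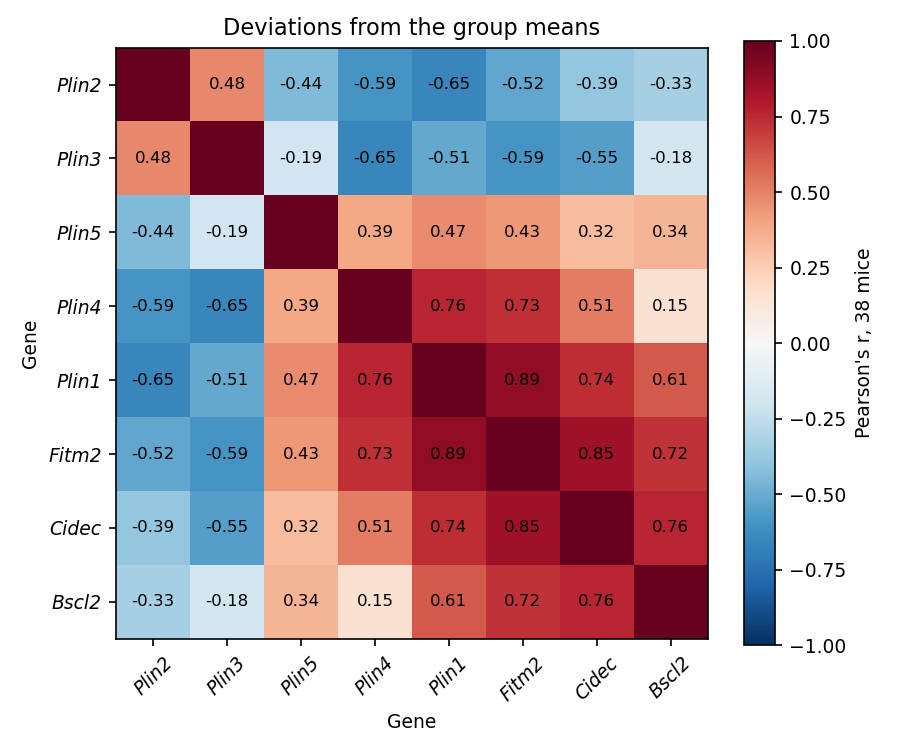
Pearson's r over 38 mice between the 8 genes tested, computed from deviations from the group means in log2(CPM + 1), red for positive and blue for negative values. Plin2 and Plin3 form a block of their own (r = 0.48) and are blue against the other 6 genes.

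The genes most like each member across all genes tested, by the same measure over 38 mice, are given as a description. Plin1 was closest to Abcd2, a peroxisomal fatty acid transporter gene (r = 0.95), Cluh (0.91) and Fitm2 (0.89), and Fitm2 to Lipe (0.91), Lonp2 (0.90) and Cluh (0.89). Of these, Lipe is also one of the adipocyte markers. Among the genes closest to Cidec were Pxmp4 (0.92) and Pex13 (0.88), and Bscl2 was closest to Mdh1, Mtch2 and Mpc2 (0.91 each), of which Mpc2 encodes a part of the mitochondrial pyruvate carrier. Plin4 was closest to Mical3 (0.89), Ebf1, a transcription factor of fat cells (0.87), and Cped1 (0.86). Plin2 was closest to Atp6v1b2, a subunit of the proton pump of lysosomes, Cstb, an inhibitor of lysosomal proteases, and Aprt (0.87 each), and Plin3 to Adprh (0.84), Ube2l3 (0.82) and Tmem189 (0.81). Plin5 had the weakest neighbours, Mpp2 (0.76), Ppp4r4 (0.72) and Crat, carnitine acetyltransferase (0.72).

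Genes that work beside the members were followed in 4 lists, whose counts can be read against the shares of all genes called in each direction at these times. Of 10 tested genes of droplet fusion and lipase control, 3, 1 and 2 were higher and 2, 3 and 3 lower in HFD at 8, 20 and 34 weeks, with median log2 differences of 0.02, 0.02 and -0.30. The largest fall at 20 weeks was that of Pnpla2, the gene of the first lipase of triglyceride breakdown, from 3676 ± 546 to 2125 ± 580 CPM (SD over mice, adjusted p = 0.00112 by limma). At 34 weeks it was that of Lipe, the hormone-sensitive lipase gene, from 2607 ± 701 to 1621 ± 529 CPM (adjusted p = 0.00132). Lipe is also in the adipocyte marker list. At 8 weeks G0s2, an inhibitor of that first lipase, rose from 27.7 ± 10.7 to 69.3 ± 35.1 CPM (adjusted p = 0.00588), while Hilpda, another inhibitor, fell from 223 ± 28.5 to 105 ± 46.4 CPM (adjusted p = 0.00537). Rab8a was the largest rise at 20 weeks (0.36, adjusted p = 0.000154), and Cidea, the fusion protein gene of brown fat, that at 34 weeks, from 5.40 ± 1.65 to 10.8 ± 7.29 CPM (adjusted p = 0.0297).

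Of 17 tested genes of droplet biogenesis and ER contact, 4, 6 and 8 were higher and 4, 5 and 2 lower, with medians of 0.05, 0.00 and 0.10. Dgat1, which makes triglyceride in the ER, had the largest fall at each time, from 502 ± 89.2 to 300 ± 28.7 CPM at 8 weeks, from 626 ± 157 to 230 ± 58.1 CPM at 20 weeks and from 411 ± 103 to 202 ± 59.0 CPM at 34 weeks. All 6 HFD mice lay below every CD mouse each time (adjusted p = 0.00282, 3.72e-07 and 6.98e-05). Dgat2, the other enzyme of that step, was the largest rise at 8 weeks, from 1696 ± 260 to 2874 ± 763 CPM (adjusted p = 0.0493), and Lpcat1, which remodels phospholipid, that at 20 and 34 weeks (1.51 and 1.08, adjusted p = 1.67e-06 and 0.000247).

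Of 16 other droplet surface genes tested, 4, 6 and 5 were higher and 2, 5 and 2 lower, with medians of 0.11, 0.18 and 0.07. Nsdhl, a cholesterol synthesis enzyme, had the largest rise at 8 weeks (1.20, adjusted p = 0.00126), Dhrs3, a retinal reductase, at 20 weeks, from 64.7 ± 10.5 to 180 ± 31.0 CPM (adjusted p = 4.73e-08), and Hsd17b11 at 34 weeks (0.60, adjusted p = 0.000876). Mettl7a1 fell most at 8 weeks and at 20 weeks (-0.76 and -1.07, adjusted p = 0.00368 and 5.2e-05), and Mettl7b at 34 weeks (-0.80, adjusted p = 0.00149).

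Of 11 PPAR and adipocyte regulators, all tested, 0, 2 and 1 were higher and 4, 5 and 5 lower, with medians of -0.16, -0.25 and -0.38. Pparg is also in the adipocyte marker list. Ppargc1a, a coactivator of mitochondrial genes, fell most at 8 weeks, from 10.5 ± 1.79 to 5.51 ± 1.61 CPM (adjusted p = 0.00166), Ppard at 20 weeks, from 80.1 ± 12.8 to 39.3 ± 7.12 CPM (adjusted p = 3.7e-06), and Cebpa at 34 weeks, from 778 ± 264 to 495 ± 93.7 CPM (adjusted p = 0.0017). Tfeb, a regulator of lysosome genes, was the largest rise at 20 weeks, from 6.56 ± 2.22 to 20.3 ± 4.54 CPM, and at 34 weeks, from 19.8 ± 8.39 to 38.4 ± 10.9 CPM (adjusted p = 1.24e-06 and 0.000586).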

How the data were processed

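The authors sequenced RNA of floating adipocytes from 38 mice as stranded mRNA libraries, with 3 technical replicates per mouse (114 samples) that they merged. According to their methods, reads were aligned to mm10 (GRCm38) with STAR, and featureCounts counted them over the union of exons of GENCODE genes. The submitters' processing notes name STAR 2.5.2b and Subread 1.5.1. The deposited values are CPM. The authors' methods state that, unless noted otherwise, their CPM values use edgeR's TMM factors. Each column sums to 1000000, so that no TMM scaling by the authors was seen in the deposited values, although the plan had allowed for it. The main fit used these unscaled CPM and so departs from the normalization that the methods name, with TMM factors as an alternative. All values (100%) were whole reads within 0.1 reads, which gave 9275711 to 15480388 reads per mouse (median 12522298). Of 29132 genes, 7966 had no read and 26 symbols had turned into dates.

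Groups came from the sample titles. The 10343 genes with a mean log2(CPM + 1) above 2, 8 of the 9 members among them, were fitted in limma 3.58.1 (R 4.3.3, eBayes with trend, two-sided, 6 groups, 32 residual degrees of freedom), with Benjamini-Hochberg adjustment and a threshold of 0.05. Fold changes are on the log2(CPM + 1) scale, which understates those of low genes. Fitm1 was tested alone by an exact permutation test over mice. The fit was also run on simulated counts, with few genes changed and the same spread set for all genes. That setting differs from these data, so it does not bear on the calls given here, and its outcome is not reported. Alternatives were a pseudocount of 0.25, no filter, TMM and median-of-ratios factors, edgeR 4.0.16 and DESeq2 1.42.0 on the recovered reads, only the groups compared, mouse number as a block, the mean of the 10 macrophage markers found of 12 listed symbols as a covariate, and each mouse left out. CD mice 2 and 5 of 34 weeks were left out together after their marker levels were seen.

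Named were all 9 members, the called gene with the largest rise and fall of each of 4 lists at each diet comparison, and the 3 genes most correlated with each member, of which 1 is not reported here. Members, lists, motifs, the promoters printed and the ratios were chosen with earlier results of these data known. Promoter windows were cut to the 250 bases before the start after a first look at 300 bases, which had also held CACGTG across the start of Plin2. Levels per kilobase used exon unions of GENCODE vM21, which may differ from the authors' gene models.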

Additional observations from a re-analysis of the deposited data

Results flagged for a closer look

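Of the 54 sets of values (9 genes in 6 groups), 3 held a mouse far from the rest by Dixon's test on log2(CPM + 1), which chance does in about 1 in 20 sets. Mouse 1 of CD at 8 weeks had the highest Plin3 level of its group, at 51.9 CPM, with a gap to the next mouse of 0.632 of the group's range. Mouse 1 of CD at 20 weeks had the lowest Plin5 level, at 6.02 CPM (0.731 of the range), and mouse 5 of CD at 34 weeks the lowest Cidec level, at 2378 CPM (0.714 of the range). Levels are in CPM and gaps on the log2 scale. On the CPM scale the gaps were 0.657, 0.668 and 0.627, still past the critical values, and Plin4 in mouse 4 of HFD at 20 weeks (4833 CPM) was past it too (0.651, against 0.573 on the log2 scale). The Cidec mouse also had the most macrophage marker reads of its group (9707 CPM) and the fewest adipocyte marker reads (29831 CPM), and their part in its Cidec level was not tested. The Plin5 mouse too had the most macrophage (2896 CPM) and the fewest adipocyte marker reads (39192 CPM) of its group. It was also the lowest of its group in Plin1, Cidec, Bscl2 and Fitm2, and the part of the marker cells in this was not tested.

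In 2 cases the diet difference itself differed between times in limma's interaction test. That of Plin2 was 1.05 (log2) larger at 20 than at 8 weeks (adjusted p = 0.041), and the HFD mean lay above the CD mean at both times. That of Plin3 changed by -0.53 from 20 to 34 weeks (adjusted p = 0.00835), with all HFD mice above all CD mice at 20 weeks and 4 of 6 at 34 weeks.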

How the results depend on the processing

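Under a pseudocount of 0.25, all 24 diet differences of the members and all 26 called differences of the other comparisons kept their direction and their side of the threshold. Of the 8 members, 1 was called at 8 weeks but 4 with TMM factors, median-of-ratios factors, edgeR, DESeq2 or only the groups compared, with Cidec, Fitm2 and Plin4 added, or Plin1 in place of Plin4 with only the groups compared. Of all genes tested at 8 weeks, 22.6% were called higher and 21.4% lower with TMM factors, and 22.0% and 22.4% with median-of-ratios factors. With the macrophage marker mean as a covariate, the members called numbered 2 at 20 weeks, 0 at 34 weeks, 3 in CD from 20 to 34 and from 8 to 34 weeks, 1 in CD from 8 to 20 weeks, 0 in HFD from 8 to 20 weeks and 2 in HFD from 8 to 34 weeks. The shares of all genes called in that fit were 29.5%, 9.41%, 63.1%, 55.4%, 8.72%, 6.02% and 25.3% in the same order. For the change of the diet difference from 8 to 20 weeks (1 call), there were 0 without the filter, in edgeR or with the replicate block and 2 in DESeq2, with only the groups compared or without CD mice 2 and 5 of 34 weeks. From 20 to 34 weeks (1 call) there were 2 in DESeq2 and with the covariate, and from 8 to 34 weeks (0 calls) 1 with the block, the covariate or those 2 mice left out. Under the covariate, 15.1% of all genes were called for the change from 20 to 34 weeks and 34.6% for that from 8 to 34 weeks. CD from 20 to 34 weeks gave 3 in place of 5 calls without the filter or those mice, and the diet comparison at 8 weeks gave 3 without them. Those mice had the lowest Cidec and Fitm2 values of their group, the genes whose calls were lost in CD. Shares of all genes called are not given here for edgeR, DESeq2, the block, no filter, only the groups compared or mice left out. The member counts of those fits therefore have no background beside them.

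Signs turned with the covariate for the uncalled Plin1 (0.02), Plin2 (-0.01), Plin5 (0.06) and Bscl2 (0.19) at 8 weeks, for Plin4 (0.14) and Plin5 (0.34) at 34 weeks, and for the called Plin1 from 8 to 34 weeks in CD (0.05, adjusted p = 0.778). Plin5 at 20 weeks turned to -0.08 with TMM, -0.04 with median-of-ratios factors, -0.10 in edgeR and -0.06 in DESeq2. Leaving out each mouse gave Plin5 differences of -0.01 to 0.17 at 20 weeks and -0.17 to 0.14 at 34 weeks. It gave 1 to 3 calls at 8 weeks, 0 to 2, 1 to 2 and 0 to 1 for the changes of the diet difference (from 8 to 20, 20 to 34 and 8 to 34 weeks) and 3 to 5 in CD from 20 to 34 weeks, with 3 without CD mouse 3 of 20 weeks. There Fitm2 lost its call without CD mouse 3, 5 or 6 of 20 weeks or 2 or 5 of 34 weeks (adjusted p = 0.051 to 0.078), and Cidec without CD mouse 3 of 20 weeks (0.0504). The cause of these shifts was not tested. Uncalled values of the time comparisons were not followed singly, a choice made after many of them were seen to change sign.

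Mice with the same number in 2 groups did not deviate together (mean r = -0.038 over 90 pairs, range -0.676 to 0.55, and 0.00674 for other pairs), and 4 of 38 mice were best matched by a mouse of their own number, so the number was not taken as a pairing. The replicate block lost Cidec at 34 weeks (adjusted p = 0.059), Plin2 in the change from 8 to 20 weeks (0.0544), Fitm2 in CD from 20 to 34 weeks (0.0656) and Plin3 in HFD from 8 to 20 weeks (0.0523). It gained the call named above from 8 to 34 weeks and moved none of the other calls followed.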
